A study of Mus musculus with 10 samples.

Results

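The microRNAs of the miR-297, miR-466, miR-467 and miR-669 families were followed in splenic B-cells with or without lipopolysaccharide (LPS). Members were all rows of the microRNA class whose name starts with miR-297, miR-466, miR-467 or miR-669. The rule used no measured value, but it was chosen with earlier results of these data known. It took 72 rows of 1302 mature microRNAs, in a class of 2015 rows and a table of 6968 small RNA features. By family they were 6 rows of miR-297, 28 of miR-466, 12 of miR-467 and 26 of miR-669, and by hairpin arm 33 rows of the 3p arm, 30 of the 5p arm and 9 with no arm in the name.

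A microRNA is a short RNA cut from the stem of a hairpin, and it guides a protein complex to messenger RNAs that pair with its seed, the bases near its 5′ end. The large cluster of these families lies in an intron of Sfmbt2, a gene of the Polycomb group that is imprinted in mouse and best known from the trophoblast. The hairpins are rich in CA and GU repeats and occur in many nearly identical copies, so that one read can match several of them. In mature B-cells LPS signals through a Toll-like receptor and drives division and differentiation towards antibody-secreting cells.

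The cells were CD43- splenic B-cells of wt mice, of 3′RR-deficient mice, which lack the regulatory region downstream of the antibody heavy chain genes, and of Eµ-deficient mice, which lack the intronic enhancer of that locus together with its matrix attachment regions. Non-stimulated (NS) cells received medium alone and stimulated cells 5 µg/ml LPS, each for 2 days per the labels, although the study's methods describe resting cells taken before stimulation. The wt and 3′RR-deficient groups had 2 libraries in each condition and the Eµ-deficient group 1 library in each, which makes 10 libraries, each from the pooled cells of 2 mice. The methods give the mice as 8 to 12 weeks old, of both sexes and of one inbred background, and both deletions are germline, so that every cell of those mice carries them.

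Total counts ran from 3482540.0 to 18144016 per library, and the microRNA class took 51.4% to 82.1% of them. The second NS libraries of wt and 3′RR-deficient cells stood apart from the first. They were the 2 shallowest, and the differences between replicate 2 and replicate 1 in the 2 genotypes went together over 720 features (r = 0.75, a description). The 4 microRNAs listed as B-cell markers were miR-150-5p, both arms of miR-142a and miR-155-5p. Their summed level was high in all libraries, with 71235 to 221365 CPM in NS and 78398 to 151175 CPM in LPS libraries. The sum does not show how each of them moved. CPM are counts scaled to the size of the microRNA class with TMM factors. The 4 erythroid markers summed to 3815 to 14184 CPM in NS and 169 to 4769 CPM in LPS libraries, the 2 myeloid markers to 526 to 5629 and 76.7 to 530.4 CPM, and the 5 stromal and endothelial markers to 214 to 1026 and 70.5 to 999 CPM. Every marker of these 3 lists was over 3 counts in some library, and their part in the results on LPS was not tested. In bulk cells, fewer cells of a type and less RNA per cell cannot be told apart. Of 5 embryonic stem cell and trophoblast markers (the miR-290 to miR-295 cluster) 3 were in the table, their highest count in any library was 4, and all 3 were at 0 in 8 of 10 libraries.

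Of the 72 rows, 63 lay inside Sfmbt2 (mm10, chr2:10370510-10595253, plus strand), all of them in intron 10 (chr2:10461473-10523944). The rows there lay on the plus strand between 10466677 and 10518240, and the RefSeq hairpins of these families spread over 51.6 kb. The other 9 rows lay on other chromosomes. Each row was given 1 position, also where RefSeq lists several hairpins of the name. miR-297a has 4, and its 5p row is among the 9 while its 3p row lies in intron 10. miR-466f, also among the 9, has 4 as well. Of the 9 rows, miR-467h (chr9:115381898-115381919) was the third in the mean over 10 libraries and overlapped no gene but its own hairpin Mir467h. miR-466i-3p (chr13:17747552-17747573), miR-467f (chr11:69635419-69635439) and miR-669n (chr3:115979905-115979924) lay antisense in introns of Cdk13, Fxr2 and Slc30a7, and miR-466q (chr3:28419988-28420007) lay in sense in an intron of Tnik.

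The RefSeq table (GRCm38.p6) held the mature sequence of 7 of the 72 members, all outside Sfmbt2. They are shown because the repeat content of the families is visible in them. They are written 5′ to 3′ with the seed (bases 2 to 8) in capitals.
miR-467h: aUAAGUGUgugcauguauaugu
miR-466i-3p: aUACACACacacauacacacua
miR-467f: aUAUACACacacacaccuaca
miR-466k: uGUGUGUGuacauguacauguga
miR-466q: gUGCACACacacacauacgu
miR-466j: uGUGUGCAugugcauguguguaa
miR-669n: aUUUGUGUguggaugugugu

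No seed was shared between these 7. The longest run of alternating dinucleotides was 7 bases in miR-467h and miR-466j and 12 bases in miR-467f and miR-466q. Only miR-467h of the 7 was over 3 counts in all 10 libraries, with 30 to 993 counts. miR-466j held 7 counts in 1 LPS library of 3′RR-deficient cells and 0 in the other 9, and miR-669n 1 count in all.

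The rows are not independent measurements. Among 46 members with at least 50 counts in total, 18 of 1035 pairs kept one ratio of counts over the 10 libraries (chi-square per degree of freedom at most 0.0928, where the next pair had 0.290 and the median of the others was 6.26). The limit of 0.1 was chosen after these values were seen. These pairs joined 18 rows into 7 groups. They were the 3p rows of miR-466a, b, c, e and p, those of miR-297a, b and c, those of miR-467a and d and those of miR-669a and o, and the 5p rows of miR-467a and b, of miR-669a and p, and of miR-669m and b.

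Several of the ratios were near the numbers of RefSeq hairpins. The count of miR-467a-5p, with 10 hairpins, was exactly 10 times that of miR-467b-5p, with 1 hairpin, in 10 of 10 libraries, and ranged from 40 to 720. miR-466c-3p, with 3 hairpins, had 2.99 times the counts of miR-466e-3p, with 1. miR-669a-5p had 5.99 times those of miR-669p-5p, with 12 and 2 hairpins. The ratio of miR-297a-3p to miR-297b-3p was 2.00, where RefSeq lists 4 and 1 hairpins. How reads that match several places were counted is not given in the sources used here, so a level below is that of a row and not of one hairpin, and its counting interval is too narrow where reads were entered more than once.

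**Figure D1:**
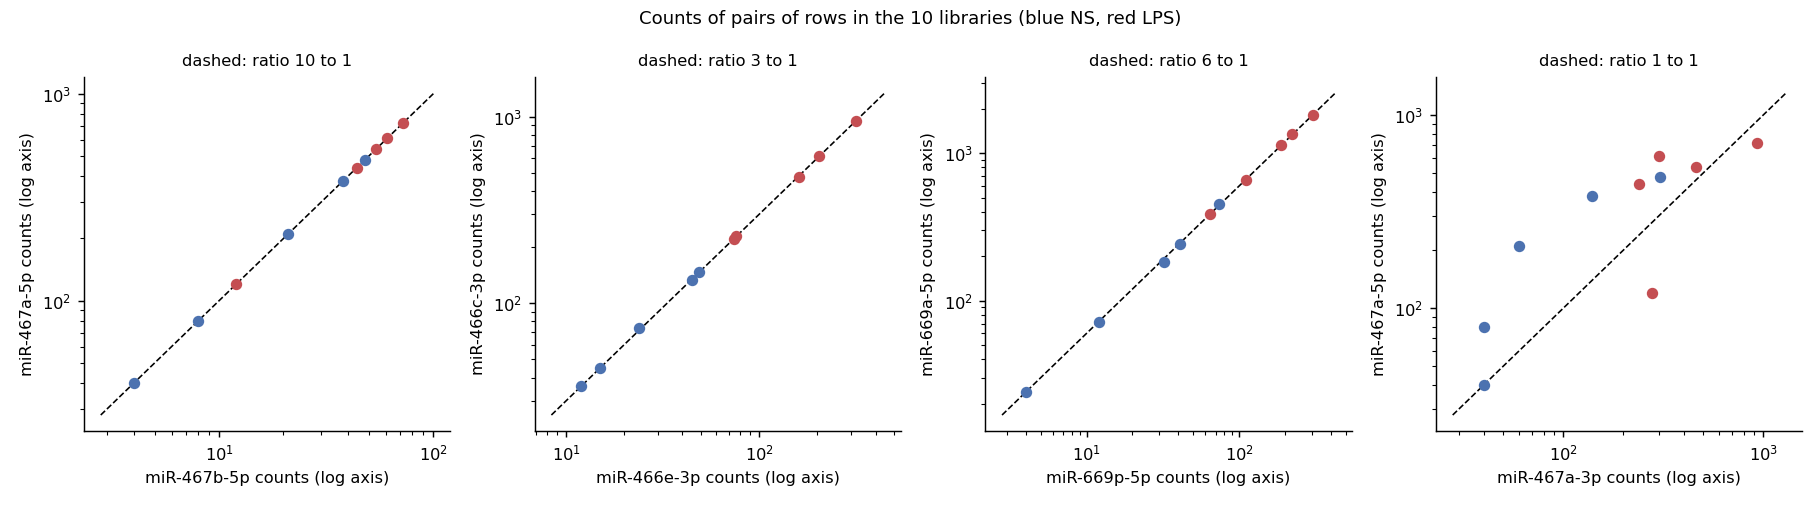
Counts of 4 pairs of member rows in the 10 libraries, on log axes, 1 point per library (blue NS, red LPS). In the first 3 panels the points lie on the dashed line of a fixed ratio (10, 3 and 6 to 1), whereas the 3p and 5p rows of miR-467a in the last panel scatter about the line of equal counts.

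The families were a small part of the microRNA counts and a larger part after LPS. They took 0.0295% (Wilson 95% interval 0.0286% to 0.0305%) and 0.0434% (0.0408% to 0.0463%) of the microRNA counts in the wt NS libraries, and 0.0223% and 0.0441% in the 3′RR-deficient ones. With LPS the wt libraries reached 0.121% and 0.131%, and the 3′RR-deficient ones 0.0868% and 0.0904%. The share was 0.0640% in the Eµ-deficient NS library and 0.174% in the LPS one. All 5 LPS libraries lay above all 5 NS libraries. These intervals cover counting error only.

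On the TMM scale the summed level was 371 ± 25.3 CPM (SD, n = 2) in wt NS and 1272 ± 374 CPM in wt LPS cells. In 3′RR-deficient cells it was 321 ± 64.6 CPM in NS and 964 ± 169 CPM in LPS (n = 2 each). The Eµ-deficient libraries held 603 and 1474 CPM. Keeping only the most abundant row of each shared group, the mean was 327 CPM in NS and 1086 CPM in LPS for wt cells. For 3′RR-deficient cells it was 286 and 822 CPM. This leaves out partner rows but need not count each read once. The kept row miR-467a-5p, for example, holds exactly 10 times the counts of miR-467b-5p.

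**Figure D2:**
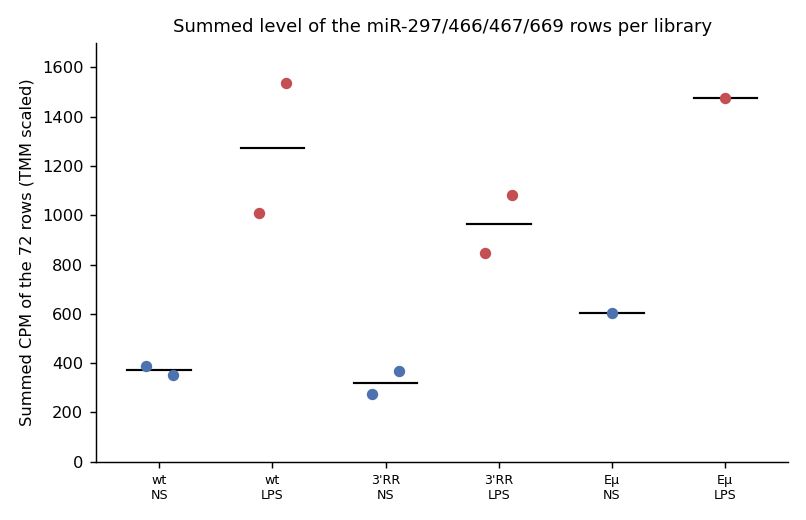
Summed CPM of the 72 member rows in each of the 10 libraries (points), with the group mean (black line), by genotype and condition. The 5 NS libraries lie between 276 and 603 CPM and the 5 LPS libraries between 845 and 1537 CPM.

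The sum was carried by few rows. The 10 most abundant held 68.9% to 79.1% of the member counts of a library. In order of the mean over 10 libraries they were miR-466b-3p (101 CPM), miR-669a-5p (83.0), miR-467h (60.3), miR-669c-5p (59.6), miR-669a-3p (56.2), miR-467c-5p (54.5), miR-467a-5p (49.0), miR-466c-3p (39.2), miR-467a-3p (37.9) and miR-467e-5p (35.1). The order is one of rows. Per RefSeq hairpin of the name, the mean stayed at 60.3 CPM for miR-467h, 59.6 for miR-669c-5p, 54.5 for miR-467c-5p and 35.1 for miR-467e-5p. These have 1 hairpin each. The other rows of the 10, with 3 to 12 hairpins, had 3.79 to 13.1 CPM per hairpin. Among them miR-466b-3p had 12.7 and miR-669a-5p 6.92. The mean over 10 libraries pools both conditions, and the order of the rows differed between them. In wt NS cells miR-669c-5p (50.5 CPM) and miR-669a-3p (38.5) stood above miR-466b-3p (34.1) and miR-669a-5p (26.2), and in wt LPS cells miR-466b-3p (169 CPM) and miR-669a-5p (145) stood above miR-669a-3p (88.3) and miR-669c-5p (60.9). No neighbours in the pooled order differed by more than the 2 wt LPS libraries of the higher one did. At the other end, 8 rows had 3 counts or fewer in every library and are at the floor (miR-466a-5p, miR-466l-5p, miR-466m-5p, miR-669d-3p, miR-669d-2-3p, miR-669h-3p, miR-669k-5p and miR-669n). A further 25 rows were over 3 counts in all 10 libraries and 39 in some of them.

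Which members changed with LPS was asked over wt and 3′RR-deficient cells together, 4 LPS against 4 NS libraries, with edgeR's quasi-likelihood test on the whole microRNA class (adjusted p from Benjamini-Hochberg over 720 features). In this fit 45 members passed the filter on low counts, and 23 of these were called, all 23 higher with LPS. Over all features 21.8% were called, and 13.2% were called higher. The estimate was above 0 for 44 of 45 members, with a median log2 fold change of 2.20 where the median of all features was 0.07. Of the 45 members, 18 passed the filter only with the help of the LPS libraries, and such rows could hardly do other than lie higher there. Of the 27 that passed on the NS libraries alone, 15 were called higher, with a median of 1.84. Of all 576 features that passed in this way, 10.9% were called higher, with a median of -0.28. With each shared group counted once, 16 of 34 were called. The 15 calls among rows that passed on the NS libraries alone include the 5 rows of the miR-466b-3p group. Passing and p also depend on the size of the counts in a row. miR-467a-3p, with 9.96 times the counts of its partner miR-467d-3p, passed on the NS libraries alone and miR-467d-3p did not. For miR-467a-5p the edgeR adjusted p was 0.0788, and for miR-467b-5p, at exactly 10 times fewer counts, it was 0.159.

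The 4 LPS libraries all lay above the 4 NS libraries in 26 of 45 members, and in 18.2% of all 720 features. Both counts include rows that the filter kept only through the LPS libraries. Among those that passed on the NS libraries alone the LPS libraries lay above in 15 of 27 members, and in 14.9% of 576 features. With the Eµ-deficient libraries, 19 of 45 members had all 5 LPS above all 5 NS libraries, as did 13.3% of the 720 features, and among rows that passed on the 4 NS libraries alone 12 of 27 members and 11.1% of 576 features. The called members lay in 3 of the families, with 13 of 16 tested rows of miR-466, 4 of 9 of miR-467, 6 of 16 of miR-669 and 0 of 4 of miR-297. With each shared group counted once these were 9 of 12, 3 of 7, 4 of 13 and 0 of 2. Among rows that passed on the NS libraries alone they were 9 of 10, 3 of 7, 3 of 9 and 0 of 1, and with each shared group also counted once 5 of 6, 3 of 6, 2 of 7 and 0 of 1. By arm, 12 of 23 tested 3p rows and 9 of 20 tested 5p rows were called, or 7 of 15 and 7 of 17 with each shared group counted once. Among rows that passed on the NS libraries alone these were 9 of 14 and 4 of 11, or 5 of 9 and 3 of 9 with each shared group counted once. Of the rows given a position outside Sfmbt2, miR-467h and miR-297a-5p were tested and miR-467h was called.

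**Figure D3:**
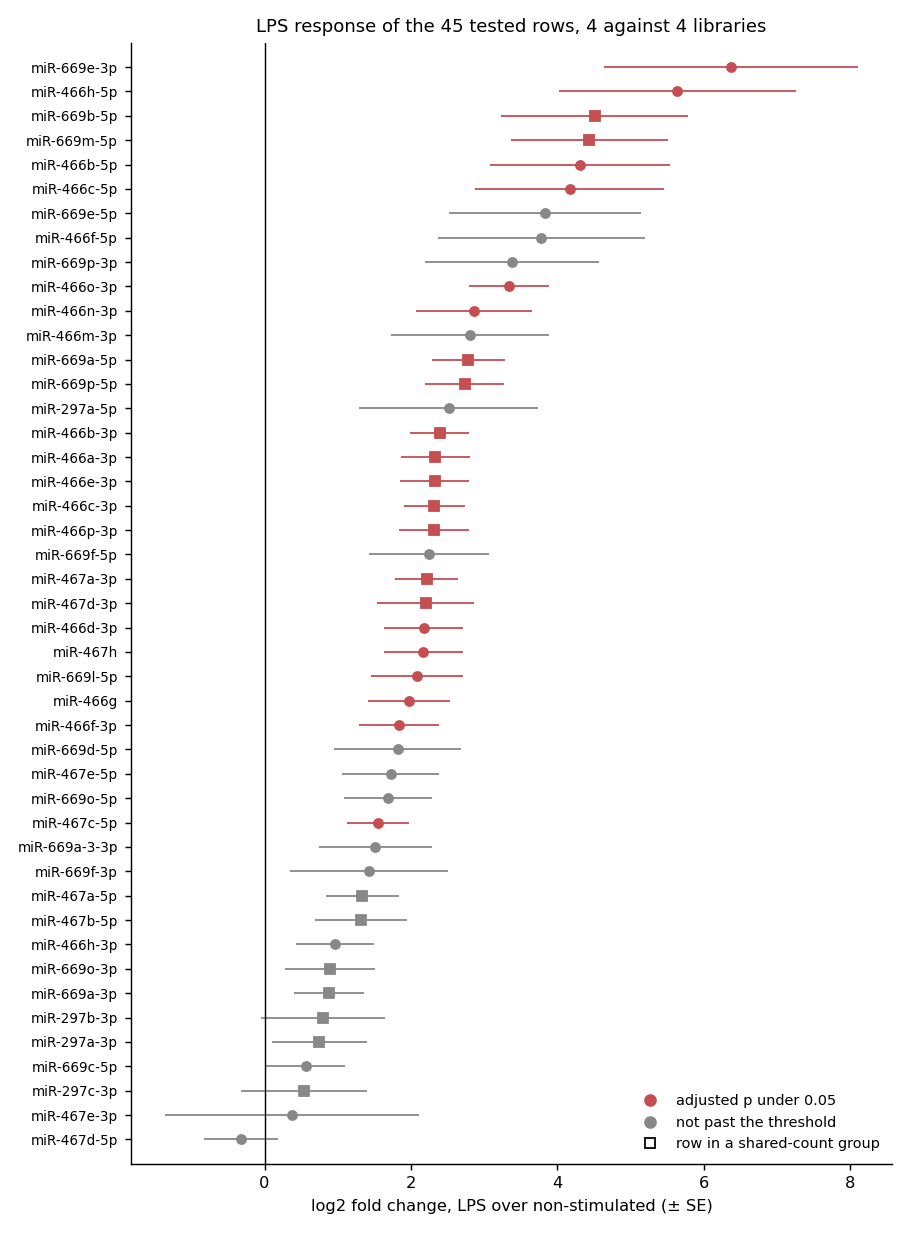
Log2 fold change of LPS over NS (± SE, edgeR, 4 against 4 libraries) for the 45 tested members, red where the adjusted p was under 0.05, with squares for rows in a shared-count group. All 23 red rows lie to the right of 0, and miR-467d-5p is the 1 row to the left of it.

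The member with the smallest p was miR-466o-3p. The row has no shared partner. It is one of the 18 that passed the filter only through the LPS libraries, so its direction was favoured by the filter. It measured 1.81 and 1.10 CPM in wt NS, 1.02 and 1.31 CPM in 3′RR-deficient NS, 10.04 and 17.2 CPM in wt LPS and 11.5 and 11.4 CPM in 3′RR-deficient LPS libraries. The groups did not overlap, and the row rose by 3.34 ± 0.55 (SE) on the log2 scale (edgeR adjusted p = 0.00313). The Eµ-deficient libraries held 2.43 CPM in NS and 16.1 CPM in LPS.

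miR-466b-3p (chr2:10503615-10503636), the highest in the mean over 10 libraries, measured 35.6 and 32.5 CPM in wt NS, 23.6 and 36.5 CPM in 3′RR-deficient NS, 116 and 223 CPM in wt LPS and 137 and 142 CPM in 3′RR-deficient LPS libraries. Each of these 4 LPS libraries was above 3 times the highest of the 4 NS libraries. It rose by 2.39 ± 0.40 (edgeR adjusted p = 0.00346), and the Eµ-deficient libraries held 43.8 and 222 CPM. The 3p rows of miR-466a, c, e and p share its counts, rose by 2.31 to 2.33 and are not separate evidence. Outside that group, miR-466d-3p rose by 2.18, miR-466n-3p by 2.86, miR-466g by 1.98 and miR-466f-3p by 1.84 (edgeR adjusted p = 0.0175, 0.0289, 0.0302 and 0.0364). For miR-466g the groups overlapped, as the first wt LPS library measured 9.83 CPM and the second wt NS library 11.3 CPM.

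Of the miR-669 rows, miR-669a-5p (chr2:10510185-10510208) measured 26.0 and 26.3 CPM in wt NS, 23.6 and 7.89 CPM in 3′RR-deficient NS, 132 and 158 CPM in wt LPS and 86.7 and 153 CPM in 3′RR-deficient LPS libraries. LPS and NS libraries did not overlap, and the row rose by 2.78 ± 0.50 (edgeR adjusted p = 0.00480). Its partner miR-669p-5p rose by 2.73. The Eµ-deficient libraries held 52.0 CPM in NS and 164 CPM in LPS. miR-669l-5p rose by 2.08 (edgeR adjusted p = 0.0375).

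Other abundant miR-669 rows did not pass. miR-669c-5p (chr2:10509319-10509340) measured 27.1 and 73.9 CPM in wt NS, 19.97 and 70.3 CPM in 3′RR-deficient NS, 29.5 and 92.2 CPM in wt LPS and 69.5 and 63.2 CPM in 3′RR-deficient LPS libraries. Here both second NS libraries were high and the groups overlapped (log2 fold change 0.56 ± 0.54, edgeR adjusted p = 0.478). Its Eµ-deficient NS and LPS libraries measured 69.5 and 81.2 CPM. miR-669a-3p, the other arm of miR-669a, measured 32.8 and 44.2 CPM in wt NS, 16.9 and 61.4 CPM in 3′RR-deficient NS, 94.9 and 81.7 CPM in wt LPS and 39.7 and 51.7 CPM in 3′RR-deficient LPS libraries. In wt cells the LPS libraries were above the NS ones, and in 3′RR-deficient cells both lay inside the NS range (0.88 ± 0.48, edgeR adjusted p = 0.215). With the Eµ deletion it measured 29.3 CPM in NS and 109 CPM in LPS.

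Of the miR-467 rows, miR-467h, outside the cluster, measured 37.9 and 13.2 CPM in wt NS, 26.2 and 9.86 CPM in 3′RR-deficient NS, 80.7 and 139 CPM in wt LPS and 50.4 and 103 CPM in 3′RR-deficient LPS libraries. It rose by 2.17 ± 0.54 (edgeR adjusted p = 0.0182), with no overlap among these 8 libraries. The Eµ-deficient NS library, at 62.6 CPM, lay above 1 of the LPS libraries, and the Eµ-deficient LPS library held 80.4 CPM. The call was lost without wt LPS replicate 1, wt LPS replicate 2 or 3′RR-deficient LPS replicate 2 (edgeR adjusted p = 0.0532, 0.0676 and 0.0600). Its values were lower in both second NS libraries than in the first, the opposite of miR-669c-5p.

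miR-467a-3p measured 14.9 and 14.6 CPM in wt NS, 7.68 and 13.1 CPM in 3′RR-deficient NS, 48.2 and 64.3 CPM in wt LPS and 62.5 and 34.4 CPM in 3′RR-deficient LPS libraries. It rose by 2.21 ± 0.43 (edgeR adjusted p = 0.00718) and its partner miR-467d-3p by 2.20. The Eµ-deficient libraries held 35.2 CPM in NS, above the second 3′RR-deficient LPS library, and 83.9 CPM in LPS. miR-467c-5p (chr2:10473941-10473962) measured 33.4 and 22.3 CPM in wt NS, 28.2 and 26.6 CPM in 3′RR-deficient NS, 60.2 and 115 CPM in wt LPS and 50.8 and 77.0 CPM in 3′RR-deficient LPS libraries. These 8 libraries did not overlap, while the Eµ-deficient NS library, at 51.6 CPM, lay above the first 3′RR-deficient LPS library, and the Eµ-deficient LPS library held 79.6 CPM. miR-467c-5p rose by 1.55 ± 0.42 (edgeR adjusted p = 0.0274), but without 1 library at a time the adjusted p was over 0.05 in 7 of 8 cases and reached 0.130 without wt LPS replicate 2.

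Other 5p rows of miR-467 did not pass edgeR's test with the filter used here. miR-467a-5p measured 40.5 and 14.6 CPM in wt NS, 26.9 and 26.3 CPM in 3′RR-deficient NS, 88.3 and 75.7 CPM in wt LPS and 27.1 and 69.5 CPM in 3′RR-deficient LPS libraries. The first 3′RR-deficient LPS library lay within the NS range (1.34 ± 0.50, edgeR adjusted p = 0.0788), and the Eµ-deficient NS and LPS libraries measured 55.6 and 65.2 CPM. miR-467e-5p measured 30.9 and 5.85 CPM in wt NS, 18.2 and 4.27 CPM in 3′RR-deficient NS, 42.6 and 71.4 CPM in wt LPS and 18.06 and 54.8 CPM in 3′RR-deficient LPS libraries (1.72 ± 0.67, edgeR adjusted p = 0.0876). In Eµ-deficient cells it was lower in the LPS library, with 60.5 CPM in NS and 44.1 CPM in LPS. Both calls depend on the settings. With 10 CPM or more in 2 libraries as the filter both rows passed (edgeR adjusted p = 0.0468 and 0.0490), as they did by DESeq2's Wald test (adjusted p = 0.0295 and 0.0309), and miR-467e-5p also passed under total count scaling (edgeR adjusted p = 0.0442) and without the first wt NS library (edgeR adjusted p = 0.0424). miR-467d-5p was the 1 member with an estimate below 0 (-0.33 ± 0.51, edgeR adjusted p = 0.679).

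**Figure D4:**
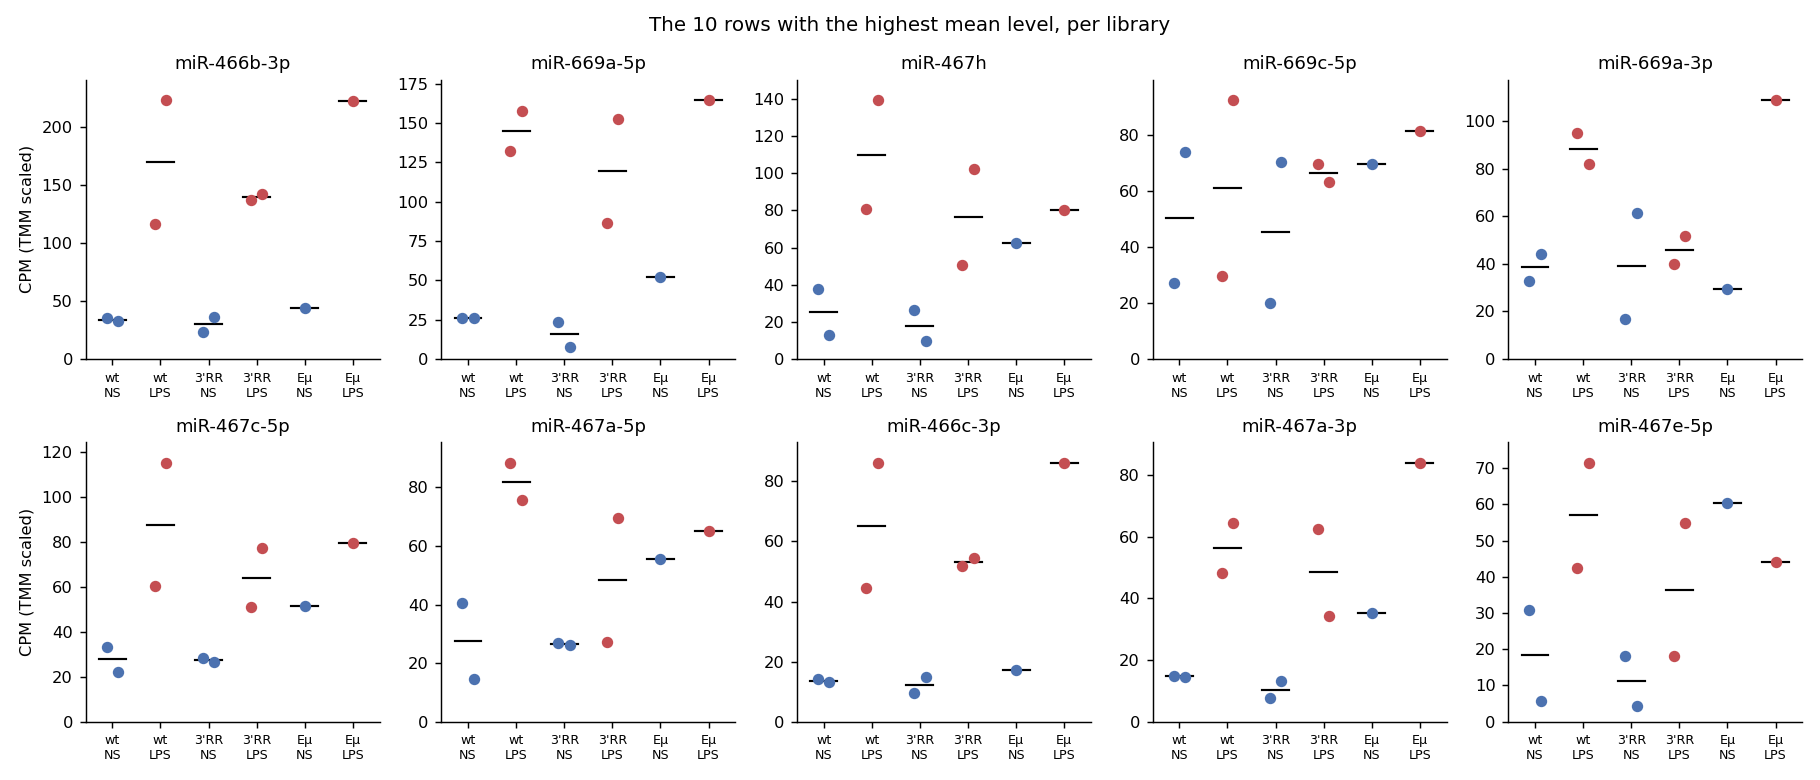
CPM of the 10 most abundant members in each library (points; blue NS, red LPS), with the group mean (black line), by genotype and condition, each panel with its own axis from 0. miR-466b-3p, miR-669a-5p and miR-466c-3p have all 5 LPS above all 5 NS libraries, while the groups of miR-669c-5p overlap.

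Some called rows were close to the floor in NS cells. The 6 rows described here passed the filter only through the LPS libraries, and so did miR-466o-3p and miR-467d-3p. Together these are the 8 calls whose direction the filter favoured, and their values are given as a description. miR-669m-5p held 2, 0, 3 and 0 counts in the 4 NS libraries and 8 to 48 in the 4 LPS libraries. With each NS library given 3 counts, its mean CPM over the LPS libraries was at least 6.84-fold that over the NS libraries. The folds below compare the same means and not single libraries. miR-669e-3p held 0 counts in all 4 NS and 5 to 12 in the LPS libraries, at least 2.33-fold higher. miR-466h-5p held 0, 0, 1 and 0 counts in NS, and 44, 27, 0 and 22 counts in LPS libraries, of which the 0 belongs to the first 3′RR-deficient library. Its mean was at least 5.43-fold higher, which does not hold for each LPS library. These measured 8.83 and 3.79 CPM in wt and 0 and 2.51 CPM in 3′RR-deficient cells. miR-669b-5p shares the counts of miR-669m-5p and was at least 3.29-fold higher. miR-466b-5p held 7 counts in the first wt NS library, 0 in the other 3 and 10 to 42 in the LPS libraries, and miR-466c-5p held 6 counts, 0 and 8 to 36.

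The number of calls depended on single libraries, since each group has 2. Each count is followed by the share of all features called in the same fit. Without the first wt NS library 17 members were called (21.1%), without the second 15 (13.3%), without the first wt LPS library 12 (8.62%) and without the second 7 (9.24%). Without the first 3′RR-deficient NS library 14 were called (19.5%), without the second also 14 (13.3%), without the first 3′RR-deficient LPS library 12 (11.3%) and without the second 9 (10.9%). The median log2 fold change stayed between 1.99 and 2.35 in these 8 fits. Without both second NS libraries, which stood apart, 22 of 52 members were called (26.3% of 824 features) and the median was 2.21.

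Within 1 genotype, 2 against 2 libraries, no member passed edgeR's test with the filter and model used here and all 8 libraries, but some did under other settings. In wt cells 0 of 45 were called (0.694% of all features), 21 had an unadjusted p under 0.05, all 45 estimates were above 0 and the median was 2.35, where of all 720 features 156 had such a p, 369 were above 0 and the median was 0.07. In 3′RR-deficient cells 0 of 45 were called (0.972% of all features), 18 had an unadjusted p under 0.05, 43 estimates were above 0 and the median was 2.21, where of all features 139 had such a p, 372 were above 0 and the median was 0.07. These counts hold the 18 rows that passed the filter only with the LPS libraries, which favours an estimate above 0. Of the 27 that passed on the NS libraries alone, 27 were above 0 in wt cells with a median of 2.13 and 26 in 3′RR-deficient cells with a median of 1.56. Of the 576 features that passed in this way, 248 and 251 were above 0, with medians of -0.28 and -0.29. DESeq2's Wald test called 12 members in each genotype, where it called 13.6% of all features in wt and 12.5% in 3′RR-deficient cells. Where the fit took replicate numbers, separately for NS and LPS, as blocks, edgeR called 5 members in each genotype, and 13.8% and 12.5% of all features. With no filter it called 1 member in wt, miR-466h-5p of the rows near the floor above (2.78% of all features). With a filter of 10 CPM or more in 2 libraries it called 1 in 3′RR-deficient cells, miR-669a-5p (3.73%). Without the first 3′RR-deficient NS library it called 3 members in wt and 2 in 3′RR-deficient cells (9.15% and 7.99% of all features), and without the first wt NS library 0 and 2 (8.28% and 4.92%). The 2 named here were named after their values were seen. miR-466o-3p, which passed the filter only through the LPS libraries, had the smallest p in both, with 3.30 ± 0.86 in wt (edgeR adjusted p = 0.0833) and 3.39 ± 0.88 in 3′RR-deficient cells (0.111). The difference of the LPS response between the genotypes was called by edgeR for 0 of 45 members (0% of all features). DESeq2 called 0 members, and its share of all features is not given here. At an unadjusted p under 0.05 edgeR gave 0 members and 5 of all 720 features. For miR-466c-5p, with the smallest p, the difference was 4.64 ± 2.63 (edgeR adjusted p = 1.00), and it rests on the 6 counts of the first wt NS library.

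The 2 arms of a hairpin could be compared in the 4 hairpin names with counts in both arms in all 8 libraries of wt and 3′RR-deficient cells. Such a ratio does not depend on the scaling. This comparison was chosen after values were seen, so the ratios are given as a description with no test. For miR-467d the log2 ratio of 3p to 5p counts was -3.55 and -3.21 in wt NS, -4.07 and -3.55 in 3′RR-deficient NS, -1.86 and -1.48 in wt LPS and 0.64 and -1.40 in 3′RR-deficient LPS libraries. Every LPS library lay above every NS library, and the means differed by 2.57. Since miR-467d-3p shares its counts with miR-467a-3p, these 3p reads may belong to either hairpin. The 3p row also passed the filter only through the LPS libraries, so this ratio was favoured to be high there.

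For miR-669a the ratio went the other way, with 0.34 and 0.75 in wt NS, -0.48 and 2.96 in 3′RR-deficient NS, -0.48 and -0.95 in wt LPS and -1.13 and -1.56 in 3′RR-deficient LPS libraries. Every LPS library lay below every NS library, if only just for the highest LPS and the lowest NS library, and the mean log2 ratio was 0.89 ± 1.47 in NS and -1.03 ± 0.45 in LPS (SD, n = 4 each). The second 3′RR-deficient NS library stood apart, and without it the NS mean was 0.20 and the difference went from -1.92 to -1.23. Both arms of miR-669a share counts with other rows, the 3p arm with miR-669o-3p and the 5p arm with miR-669p-5p, so that the ratios of miR-669a and miR-669o use the same 3p reads. For miR-467a and miR-669o the libraries overlapped, with differences of 0.83 and -0.68. Without the second 3′RR-deficient NS library these differences were 0.85 and -0.11. In the Eµ-deficient NS and LPS libraries the ratio was -2.72 and -1.76 for miR-467d, the same direction, and -0.83 and -0.60 for miR-669a, the opposite direction.

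**Figure D5:**
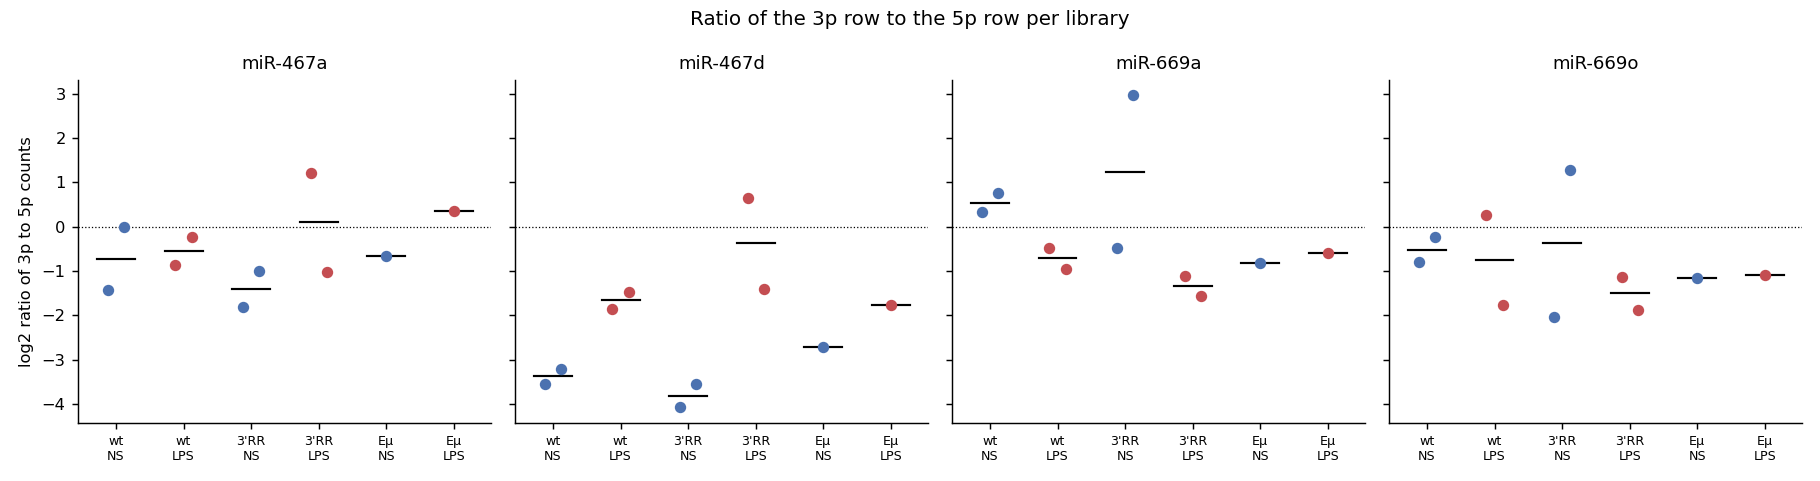
Log2 ratio of 3p to 5p counts for the 4 hairpin names with counts in both arms, 1 point per library (blue NS, red LPS) with the group mean (black line); the dotted line marks equal counts. The LPS libraries of wt and 3′RR-deficient cells lie above the NS ones for miR-467d and below them for miR-669a.

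Whether the members differed between 3′RR-deficient and wt cells was tested in each condition and over both, and no member was called. In NS cells 0 of 45 were called (0% of all features) with a median of -0.13, and in LPS cells 0 of 45 (0% of all features) with a median of -0.27. At an unadjusted p under 0.05 edgeR gave 0 members in both conditions, where it gave 9 of all 720 features in NS and 15 in LPS cells. DESeq2 called 0 members in both, and its share of all features is not given here. Over both conditions 0 of 45 were called (0.139% of all features). At an unadjusted p under 0.05 edgeR gave 2 members and 21 of all 720 features. Estimates lay below 0 for 38 of 45 members, with a median of -0.30, and for 360 of all 720 features, with a median of 0.00.

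The smallest p over both conditions was that of miR-297a-3p (chr2:10517116-10517137). It measured 2.98 and 5.85 CPM in wt NS, 6.82 and 6.59 CPM in wt LPS, 1.15 and 0.657 CPM in 3′RR-deficient NS and 1.35 and 1.60 CPM in 3′RR-deficient LPS libraries. All 4 wt libraries were above all 4 3′RR-deficient ones, with counts of 16 to 47 and 2 to 14, yet the difference did not pass (-2.10 ± 0.67, edgeR adjusted p = 0.997). Its partners miR-297b-3p and miR-297c-3p had -2.14 and -1.87. The Eµ-deficient libraries held 2.55 and 8.52 CPM.

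The Eµ-deficient cells were compared with wt over both conditions in a fit of all 10 libraries, in which 54 members passed the filter. edgeR called 0 of 54 (1.62% of 988 features), and the smallest adjusted p was 0.462. At an unadjusted p under 0.05 it gave 0 members and 113 of all 988 features. DESeq2 called 0 members, and its share of all features is not given here. The median log2 difference of Eµ-deficient from wt was 0.23, and -0.17 over all features. Within NS cells the log2 level of the Eµ-deficient library less the mean log2 level of the wt libraries was 0.70 for the summed members, and within LPS cells 0.24, with no test since there is 1 library. Among the 10 most abundant members this NS difference ran from -0.38 for miR-669a-3p to 2.13 for miR-467e-5p. The wt libraries themselves differed widely for miR-467e-5p (30.9 and 5.85 CPM).

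The microRNAs between Dlk1 and Dio3 on chromosome 12 are the other large imprinted cluster of the mouse. Of 76 such rows 13 passed the filter in the LPS comparison and 0 were called, with 2 at an unadjusted p under 0.05 in edgeR, a smallest adjusted p of 0.0578 and a median of -0.64. The median was 0.80 in wt and -3.05 in 3′RR-deficient cells. The Sfmbt2 families and these rows were not tested against each other.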

How the data were processed

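Small RNA libraries were made from the RNA of 10 pools of B-cells with 17 cycles of PCR, per the labels. The authors deposited whole-number counts per feature and library, not normalized. Their processing notes name cutadapt 1.2.1, Bowtie2 and mm10, with no roles. The counting program and the treatment of reads that match several places are not given in the sources used here. Members and lists were chosen with earlier results of these data known.

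edgeR 4.0.16 (R 4.3.3) was fitted to all 2015 microRNA rows (TMM, filterByExpr by group, quasi-likelihood, two-sided, Benjamini-Hochberg, threshold 0.05), with 8 libraries for wt and 3′RR-deficient cells and 10 for Eµ-deficient cells. DESeq2 1.42.0 was an alternative. p-values measure the spread between pools. Depth ran from 3482540.0 to 18144016 counts. The floor was 3 counts. Log2 levels of the Eµ-deficient comparison within a condition used a prior count of 2, and the 3p to 5p ratios used the counts as they are. Members named are the 10 of highest mean CPM, up to 10 called per comparison by p, or the 3 of smallest p where fewer than 3 passed. Positions were compared with GENCODE M21 and RefSeq (GRCm38.p6). Members called beyond these, rows near the floor and arm ratios were named after their values were seen.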

Additional observations from a re-analysis of the deposited data

Results flagged for a closer look

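Besides the mature microRNAs, the table holds 41 rows annotated as hairpins inside the same intron of Sfmbt2, which are no members. They entered the scaling and the adjustment of the fits above, but none of their own values was given there. They drew attention because their summed counts in the LPS libraries lay above all NS libraries, the controls. They held 49 to 132 counts in the 5 LPS libraries and 0 to 13 counts in the 5 NS libraries, and 36 of the 41 rows were at 0 in every NS library. Of the 41 rows 27 were at the floor of 3 counts in all 10 libraries, and 6 rows held one identical set of counts. No test was run.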

How the results depend on the processing

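For LPS over both genotypes 23 members were called, and 16 to 31 under the other scalings, filters and models, which called 9.95% to 37.3% of all features. Within a genotype 0 were called by edgeR with the filter and model used here, and 12 in each by DESeq2's Wald test (13.6% of all features in wt and 12.5% in 3′RR-deficient cells), 1 in wt with no filter (2.78%), 1 in 3′RR-deficient cells at 10 CPM or more in 2 libraries (3.73%), and 5 in each with the replicate block within culture condition (13.8% and 12.5%). Without 1 library the counts ran from 7 to 17 over both genotypes, 0 to 3 for wt alone and 0 to 2 for 3′RR-deficient cells alone, beside 8.62% to 21.1%, 0% to 9.15% and 0% to 7.99% of all features. Where this left a group with 1 library, that library was assumed to vary like the other groups. No member was called for a genotype in any fit. What replicates of the same number share is not given in the sources used here. Their differences correlated by -0.33 to 0.75 between groups, with the 0.75 between the 2 NS groups. The study's methods for total RNA describe cells of the mice of each genotype before and after stimulation. NS and LPS libraries of a genotype may therefore come from the same mice, and no fit used a block for a pool within a genotype. With the replicate block 21 members were called over both genotypes (21.7% of all features), and 16 with a block in each condition (25.6%), where miR-467c-5p was lost (adjusted p = 0.0958). Under total count scaling the summed Eµ-deficient levels moved from 603 to 640.2 CPM in NS and from 1474 to 1744 CPM in LPS. Without wt NS replicate 1 the genotype difference of the LPS response for miR-466b-5p turned from 4.34 to -0.041 (without any other library it was at most 5.21), as its NS counts were then all 0, and no NS ratio could be given for it or miR-466c-5p. The causes were not tested. Summing shared rows (16 of 34 rows or sums called) and leaving out both second NS libraries were chosen after seeing the data. GC correction and summing by sequence were not run, since 7 of 72 members have a sequence. Of the 27 rows under the filter on low counts, with no filter 0 were called for LPS (edgeR, 3 at an unadjusted p under 0.05), and 2 of 9 in the fit of all 10 libraries, miR-297b-5p and miR-466l-3p. That fit called 18.8% of all features. Both rows held at most 1 count in any NS library and passed its filter only through LPS libraries, which favoured their direction, and they were named after their values were seen.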
